A study of Mus musculus with 19 samples.

Results

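The 9 genes described here encode the FGF21 receptor complex and the growth hormone and IGF axis of adipose tissue, and were chosen by symbol: Fgf21, Fgf1, Fgfr1, Klb, Ghr, Igf1, Igf1r, Igfbp3 and Igfbp4. All 9 were found among the 24237 genes measured. RNA was sequenced from epididymal white adipose tissue (eWAT), the fat pad beside the epididymis, of male C57Bl6/J mice that were 9 to 10 weeks old when allocated to a diet and ate it for 17 weeks. A low-fat diet (LFD) or high-fat diet (HFD), with 10% or 60% of the energy from fat, was crossed with normal or low Mg2+, given as 0.21% or 0.03% (wt/wt) MgO. The 4 groups are called NormMg-LFD, LowMg-LFD, NormMg-HFD and LowMg-HFD. NormMg-LFD held 4 mice and every other group 5, with 1 library per mouse, and the crossed design asked whether Mg2+ supply alters the response of the tissue to fat. No mouse carried an introduced allele.

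FGF21 is an endocrine hormone, made mainly by the liver and also by adipose tissue, that signals through the receptor tyrosine kinase FGFR1 when the co-receptor β-klotho (KLB) is present, and adipocytes are among its main target cells. FGF1 acts locally on FGF receptors and takes part in the remodelling of fat pads during overfeeding. Growth hormone acts through its receptor GHR and the kinase JAK2 on STAT5 factors, and induces IGF1, which signals through IGF1R. IGFBP3 and IGFBP4 bind IGF1 outside the cell and limit its access to that receptor.

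Each library held 12986441 to 13027028 reads, of which 86.12% to 90.41% were mapped. Levels are FPKM, in which fragments are divided by transcript length and by the mapped reads of the mouse, so that levels of different genes may be compared. The adipocyte markers were all present, with a summed level of 10 genes between 15062 FPKM and 30171 FPKM, whereas hepatocyte markers summed to at most 25.8 FPKM. A few libraries stood apart. In NormMg-LFD replicate 3 the sum of 15 exocrine pancreas genes was 2019 FPKM, against 13.4 FPKM to 52.9 FPKM in the other mice. The methods of the study describe pancreatic tissue in a LowMg-HFD sample that was left out there, whereas no LowMg-HFD library stood apart for these genes here. The main fit used all LowMg-HFD libraries, so the sample left out there is among them. An alternative with 18 mice, without LowMg-HFD replicate 4 and with a filter at log2(FPKM + 1) over 3, kept 8808 genes. The study retained the same number of transcripts after its exclusion. No other LowMg-HFD library was left out alone at that filter. A list of 16 macrophage markers summed to 818 FPKM in NormMg-LFD replicate 3. This sum hardly set the groups apart, at up to 952 FPKM in NormMg-LFD mice and 953 FPKM in LowMg-HFD replicate 4. Nothing about the labels is read from it, and every library is used under its label. The epithelial genes Epcam, Cdh1, Krt8 and Krt18, a list chosen after its values were seen, summed to 97.7 FPKM in NormMg-LFD replicate 4, 81.5 FPKM in LowMg-LFD replicate 4 and 93.2 FPKM in LowMg-HFD replicate 4, to 35.4 FPKM in NormMg-LFD replicate 3, and to at most 8.16 FPKM elsewhere. LowMg-LFD replicate 4 also held 129 FPKM of epididymis genes, against at most 3.84 FPKM in any other mouse. The protamine gene Prm1, singled out after its values were seen, was 696 FPKM in LowMg-HFD replicate 4 and 188 FPKM in NormMg-LFD replicate 5. It was 70.4 FPKM in NormMg-LFD replicate 4, 40.6 FPKM in LowMg-LFD replicate 1 and at most 8.57 FPKM elsewhere. The fits of the members and of the pathway genes called were therefore repeated with fewer mice. These were 16 mice (without the 3 with most epithelial RNA) or 15 mice (also without NormMg-LFD replicate 3), a choice made after the data were seen. Calls that ended are named. NormMg-LFD replicate 5 and LowMg-LFD replicate 1, with their Prm1 values, stayed in both.

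The 9 genes spanned a wide range of levels. Over the 19 mice the mean was highest for Ghr (406 FPKM, rank 137 of 24237 genes), followed by Igfbp4 (249 FPKM), Igf1 (102 FPKM), Fgfr1 (77.3 FPKM), Fgf1 (33.3 FPKM), Klb (14.5 FPKM), Igfbp3 (12.0 FPKM), Igf1r (3.89 FPKM) and Fgf21 (1.14 FPKM). In this order the lowest mouse for Igfbp4 (141 FPKM) lay above the highest for Igf1 (136 FPKM), and the lowest for Fgfr1 (61.1 FPKM) above the highest for Fgf1 (50.7 FPKM). Every other pair of neighbours overlapped over the mice. Fgfr1 was thus 4.83 to 6.64 times as abundant as its co-receptor Klb in the group means of the ratio within a mouse, and single mice ranged from 2.43 to 7.53. The plot of levels by mouse shows all values.

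**Figure D1:**
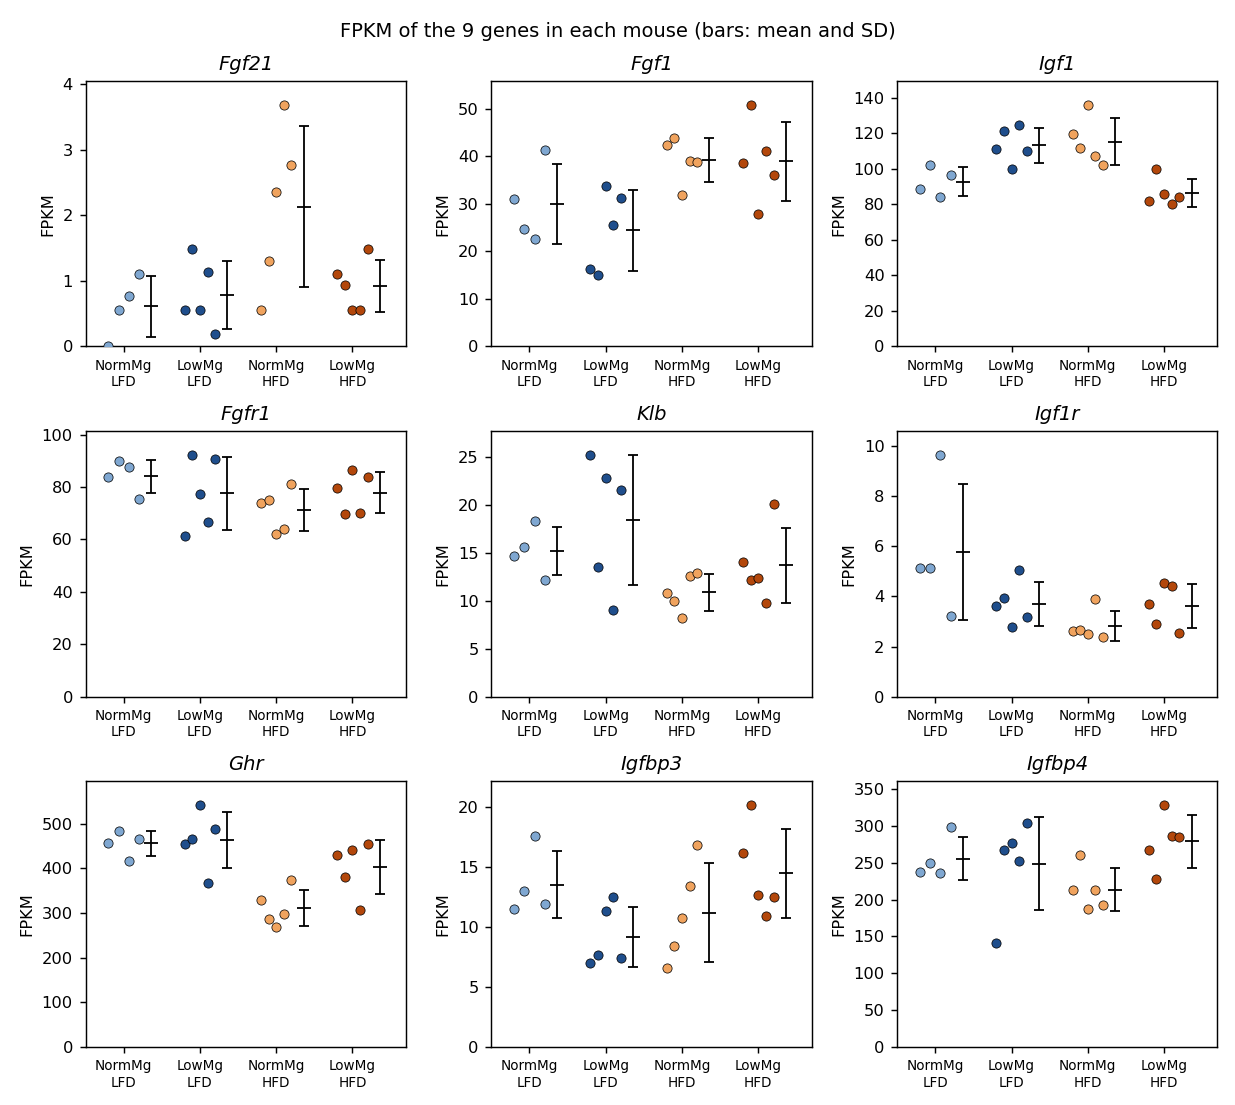
FPKM (y axes, from 0) of the 9 genes in each mouse (points) of the 4 diet groups (x axes), with the mean and SD of each group as bars. Igf1 is highest in the LowMg-LFD and NormMg-HFD groups (means 113 FPKM and 115 FPKM) and lowest in LowMg-HFD mice (86.3 FPKM), and Ghr is lowest in NormMg-HFD mice (311 FPKM).

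Differences were tested in limma on log2(FPKM + 1) over genes whose mean passed FPKM 8 in any group with 4 or more of its mice past 8 as well, which kept 8336 genes and 7 of the 9 members. Igf1r and Fgf21 lay under that filter and were read from the same fit with the filter at FPKM 1 (13454 genes). Calls are at a Benjamini-Hochberg adjusted p under 0.05, and log2 differences are given with their SE. Because 1 is added before the logarithm, these differences understate changes of low genes. In RNA from whole tissue, fewer cells of a type cannot be told apart from less RNA per cell.

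Low Mg2+ on the HFD lowered Igf1 and raised Ghr. These were 2 of the 7 members tested (Igf1, Ghr), while 18.5% of all genes tested were called in that comparison. Low Mg2+ on the LFD gave a call for 0 of the 7 members and for 0% of all genes in limma. At an unadjusted p under 0.05, 2 of the 7 members (Igf1, Igfbp3) and 6.56% of all genes would have passed there. Fat at normal Mg2+ raised Igf1 and lowered Ghr, 2 of 7 against 37.4% of all genes, and in the wider fit it raised Fgf21 and lowered Igf1r, both of the 2 members there, against 30% of all genes. In the wider fit neither of the 2 was called in the other comparisons, where 12.5% (Mg2+ on the HFD), 0% (Mg2+ on the LFD), 10.4% (fat at low Mg2+) and 0.357% (interaction) of all genes were. Fat at low Mg2+ raised Fgf1 and lowered Igf1, 2 of 7 against 15.9% of all genes. The interaction, the change in the fat response between the Mg2+ levels, was called for Igf1 alone, 1 of 7 against 1.25% of all genes. With 7 members, 1 gene more or fewer moves such a share widely, and nothing about the set is read from it. Without the 3 mice with most epithelial RNA the numbers of members called were 2, 0, 2, 2 and 0 in the same order, against 19.4%, 0%, 41.2%, 19.7% and 0.309% of all genes. With 15 mice they were 2, 0, 1 and 0 in the comparisons other than fat at low Mg2+, against 18.7%, 0%, 34.2% and 0% of all genes. For fat at low Mg2+, Igf1 and Igfbp3 were among the members called with 15 mice, against 19% of all genes.

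The scaling of the libraries mattered for the fat comparisons. Centring each mouse on its median, or quantile normalization, moved the median log2 difference of all genes from 0.07 to -0.03 or -0.04 for fat at normal Mg2+, and from 0.10 to -0.01 or -0.02 for fat at low Mg2+. The share of calls that were higher went from 65.8% to 50.1% or 46.9% for fat at normal Mg2+, from 78% to 52.8% or 50.9% for fat at low Mg2+, and from 30.2% to 43.3% or 47.2% for Mg2+ on the HFD. Calls of members that these scalings ended are named beside them.

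**Figure D2:**
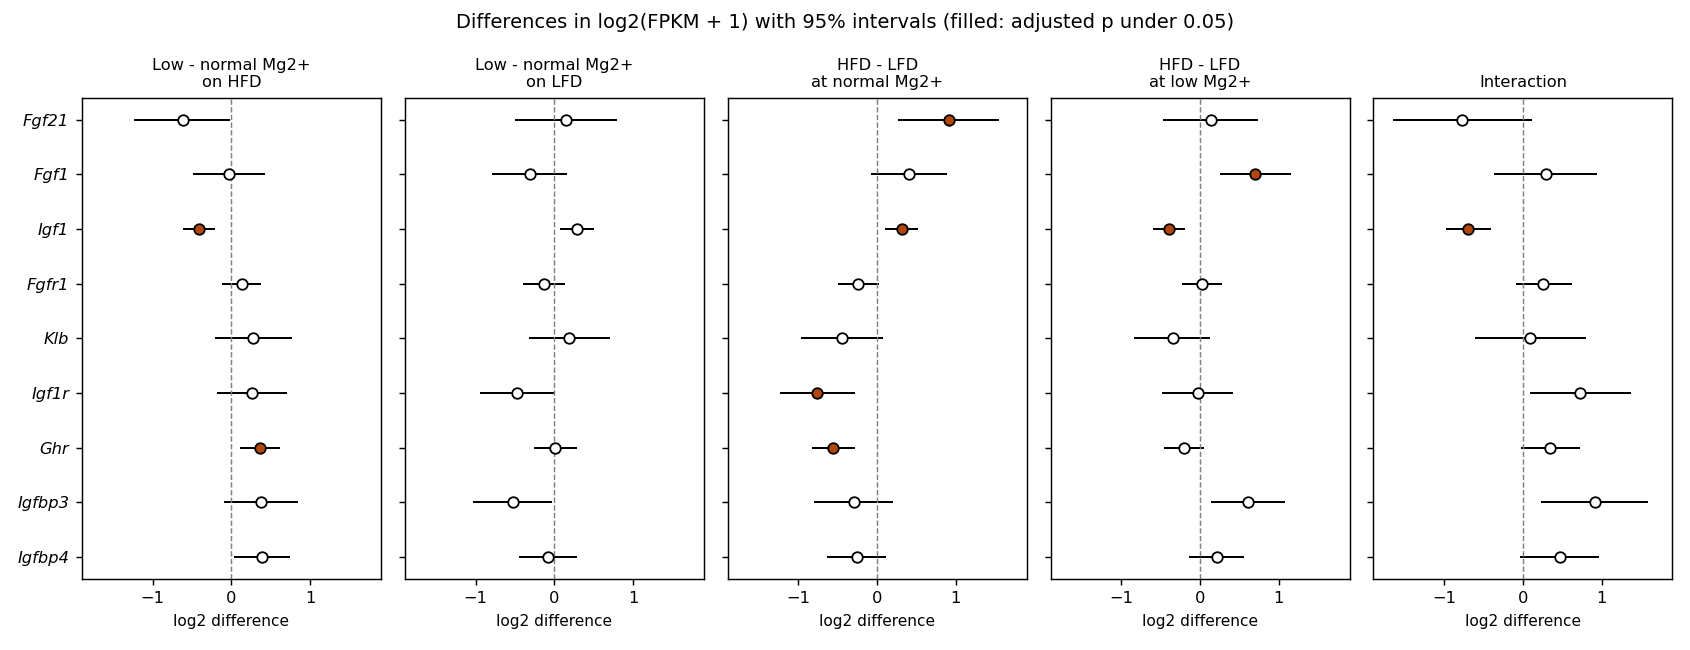
Differences in log2(FPKM + 1) with 95% intervals (x axes) for the 9 genes (y axis) in the 4 comparisons of diets and their interaction, each in a panel. Filled points passed the threshold, and Igf1 is filled in every panel but that of Mg2+ on the LFD, where its difference is 0.29.

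Fgf21 (chr7:45613886-45615490 on GRCm38, as are the other positions), the ligand of the receptor complex, was at or near the limit of detection. Its FPKM was 0, 0.56, 0.77 and 1.11 in NormMg-LFD mice and 0.55, 1.49, 0.55, 1.13 and 0.19 in LowMg-LFD mice. On the HFD it was 0.55, 1.30, 2.36, 3.68 and 2.76 at normal Mg2+ and 1.11, 0.94, 0.55, 0.55 and 1.48 at low Mg2+. In NormMg-HFD mice 4 of 5 values lay above every NormMg-LFD value, and the highest 3 lay above those of all other groups. Since single reads leave steps in the values of low genes, 1 read in a transcript as long as that of Fgf21 (951 bases) was worth 0.184 FPKM to 0.195 FPKM, read from 700 genes of 1 transcript within 100 bases of that length. On this step the Fgf21 values were whole numbers of reads to within 0.2 reads in 18 of 19 mice. They correspond to at most 8 reads in any LFD or LowMg-HFD mouse and to 3, 7, 13, 20 and 15 reads in the NormMg-HFD mice.

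Fat at normal Mg2+ raised Fgf21 by a log2 difference of 0.91 (SE 0.30, adjusted p = 0.0283). With 0.1 in place of 1 added to FPKM it was 1.88 (adjusted p = 0.0421). This call did not survive without NormMg-LFD replicate 2, where the gene was at 0 (0.70, adjusted p = 0.11), without NormMg-LFD replicate 3 (adjusted p = 0.0571), with 15 mice (adjusted p = 0.0728), with no filter (adjusted p = 0.0543) or with the 2 groups alone (adjusted p = 0.0576). With low Mg2+ on the HFD it differed by -0.62 (SE 0.28, adjusted p = 0.164). At low Mg2+ the response to fat was 0.14 (SE 0.28, adjusted p = 0.819), and the difference between the fat responses, -0.77 (SE 0.41), was not called (adjusted p = 0.339).

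Expression of Fgf21 is known to be induced by the transcription factor ATF4 during nutrient and endoplasmic reticulum stress. For 7 of the 9 members, 8 windows of 250 bases upstream of RefSeq start sites were used. No window of Fgf1 or Fgfr1 was searched. The 8 windows were searched on both strands for letters of the ATF4 type (TGATGNAA) and of the STAT5 type (TTCNNNGAA), the factor that growth hormone activates. The window of Igf1, chr10:87860861-87861110, began inside an annotated exon of that gene. No bases ahead of the first Igf1 exon were therefore searched. In the window of Klb, 153 bases lay before any exon. The only match was in the window of Fgf21, of the ATF4 type on the other strand, at bases -139 to -132 counted from the start. It is shown with capitals for the match, on GRCm38.p6, minus strand, chr7:45615491-45615740, outside any annotated exon:
Fgf21: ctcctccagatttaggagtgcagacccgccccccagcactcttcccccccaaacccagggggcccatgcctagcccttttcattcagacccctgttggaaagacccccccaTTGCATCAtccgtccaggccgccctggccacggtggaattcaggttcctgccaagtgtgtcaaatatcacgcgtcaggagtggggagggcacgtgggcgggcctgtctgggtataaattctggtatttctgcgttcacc
Among all 32851 promoter windows of this length, 3.45% held the ATF4 type and 7.02% the STAT5 type, and the match is a description of the letters.

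Fgf1, the local ligand, lies on chromosome 18. It measured 31.1, 24.6, 22.6 and 41.3 FPKM in NormMg-LFD mice, 16.2, 15.1, 33.8, 25.6 and 31.2 FPKM in LowMg-LFD mice, 42.4, 43.8, 31.9, 39.0 and 38.7 FPKM in NormMg-HFD mice, and 38.6, 50.7, 27.9, 41.1 and 36.1 FPKM in LowMg-HFD mice. Both HFD groups had the same mean to within 1 FPKM, 39.2 ± 4.6 FPKM (SD, n = 5) at normal and 38.9 ± 8.26 FPKM (SD, n = 5) at low Mg2+, and 4 of 5 LowMg-HFD values lay above every LowMg-LFD value. Fat raised Fgf1 at low Mg2+ by 0.70 (SE 0.21, adjusted p = 0.0299). At normal Mg2+ the difference was 0.41 (SE 0.22, adjusted p = 0.161), and the difference between these responses, 0.29 (SE 0.31), was not called (adjusted p = 0.643). The call at low Mg2+ was lost in 9 of 30 alternatives, among them without LowMg-LFD replicate 1 or 2, which held the lowest values (0.57 and 0.55, adjusted p = 0.0966 and 0.0804), without LowMg-HFD replicate 1 or 2 (adjusted p = 0.0599 and 0.0895), with 16 mice (adjusted p = 0.0503) and under both scalings (0.59, adjusted p = 0.0734 and 0.0767).

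Neither part of the FGF21 receptor complex was called in any of the 5 comparisons. Fgfr1 (chr8:25513654-25575718) held group means of 84.1 ± 6.34 FPKM (SD, n = 4) in NormMg-LFD, 77.6 ± 13.9 FPKM (SD, n = 5) in LowMg-LFD, 71.1 ± 8.09 FPKM (SD, n = 5) in NormMg-HFD and 77.9 ± 7.73 FPKM (SD, n = 5) in LowMg-HFD mice. It varied least of the 9 genes over all mice, with an SD of 12.8% of the mean, and single mice ran from 61.1 FPKM to 92.1 FPKM. The largest difference for Fgfr1 between diet groups was that of fat at normal Mg2+, -0.24 (SE 0.12, adjusted p = 0.122), with a 95% interval from -0.49 to 0.01. This difference would be called after median centring (-0.35, adjusted p = 0.0350) or quantile normalization (-0.37, adjusted p = 0.0192). The interaction of Fgfr1 was 0.26 (SE 0.17, adjusted p = 0.389).

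Klb (chr5:65348314-65384007), which decides which cells can answer FGF21, was 14.7, 15.6, 18.3 and 12.2 FPKM in NormMg-LFD mice and 25.2, 13.6, 22.9, 9.04 and 21.6 FPKM in LowMg-LFD mice. It was 10.8, 9.97, 8.23, 12.6 and 12.9 FPKM in NormMg-HFD mice and 14.1, 12.2, 12.3, 9.75 and 20.2 FPKM in LowMg-HFD mice. The LowMg-LFD values spanned almost the whole range of the study, and the lowest of them belonged to replicate 4, a library with epithelial and epididymis RNA. Fat gave Klb differences of -0.45 (SE 0.24, adjusted p = 0.156) at normal and -0.35 (SE 0.23, adjusted p = 0.318) at low Mg2+. The former would be called with the 2 groups alone (-0.45, adjusted p = 0.0357). With 16 mice they were -0.36 (adjusted p = 0.158) and -0.47 (adjusted p = 0.0955), and without LowMg-LFD replicate 4 alone the latter was -0.57 (adjusted p = 0.0532). Mg2+ gave 0.28 (SE 0.23, adjusted p = 0.413) on the HFD, with an interval from -0.19 to 0.76.

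Ghr, the receptor for growth hormone (chr15:3317760-3583492), gave the smallest adjusted p of the 9 genes, for fat at normal Mg2+. It measured 457, 484, 416 and 466 FPKM in NormMg-LFD mice and 454, 466, 541, 368 and 488 FPKM in LowMg-LFD mice. On the HFD it measured 328, 287, 268, 299 and 374 FPKM at normal Mg2+ and 429.5, 381, 440.1, 307 and 455 FPKM at low Mg2+. All 5 NormMg-HFD values lay below all NormMg-LFD values, and 4 of 5 LowMg-HFD values lay above every NormMg-HFD value.

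Fat at normal Mg2+ lowered Ghr from 456 ± 28.9 FPKM (SD, n = 4) to 311 ± 41.1 FPKM (SD, n = 5), a log2 difference of -0.56 (SE 0.13, adjusted p = 0.00173). The call held in all 30 alternatives, with adjusted p up to 0.00779. Low Mg2+ on the HFD raised Ghr to 402 ± 60.3 FPKM (SD, n = 5), by 0.36 (SE 0.12, adjusted p = 0.0381). That call was lost in 9 of 30 alternatives, among them leaving out NormMg-HFD replicate 1, 2, 3 or 4 or LowMg-HFD replicate 1, 3 or 5 (differences from 0.31 to 0.39, adjusted p up to 0.11), and it held with 16 mice (0.46, adjusted p = 0.00589). At low Mg2+ the fat difference was -0.21 (SE 0.12, adjusted p = 0.258), and the interaction of 0.35 (SE 0.17) was not called (adjusted p = 0.26). On the LFD, Mg2+ gave 0.01 (SE 0.13, adjusted p = 0.988).

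Adipocyte markers moved beside Ghr. The summed level of the 10 genes ran from 18251 FPKM to 27210 FPKM in NormMg-LFD, 25315 FPKM to 30171 FPKM in LowMg-LFD, 15062 FPKM to 21635 FPKM in NormMg-HFD and 21141 FPKM to 27626 FPKM in LowMg-HFD mice. Of 9 adipocyte markers tested, 6 fell and 1 rose with fat at normal Mg2+, and 6 rose with low Mg2+ on the HFD. Their part in the Ghr values was not tested. Over the 19 mice, the genes whose log2(FPKM + 1) followed Ghr most closely were Gnai1 (r = 0.955), Aoc3 (r = 0.945) and Abcd2 (r = 0.932), given as a description over mice that share their diet groups.

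Ghr has more than 1 start site. The upstream windows of its 2 RefSeq starts are shown because Ghr is the most abundant member and the one with the smallest adjusted p, and neither held letters of the STAT5 or ATF4 type. The window of the outer start is given up to the first annotated exon, chr15:3583493-3583602, and that of the inner start whole, chr15:3581843-3582092, both on the minus strand of GRCm38.p6:
Ghr, outer start: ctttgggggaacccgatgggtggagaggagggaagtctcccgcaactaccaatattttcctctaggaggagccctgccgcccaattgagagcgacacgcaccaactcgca
Ghr, inner start: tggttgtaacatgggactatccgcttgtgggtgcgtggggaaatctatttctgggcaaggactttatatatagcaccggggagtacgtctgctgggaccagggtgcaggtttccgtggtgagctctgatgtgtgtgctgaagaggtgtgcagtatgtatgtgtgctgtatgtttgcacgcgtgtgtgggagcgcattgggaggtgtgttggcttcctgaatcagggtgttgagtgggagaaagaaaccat
No letters are in capitals, because no match was found in them.

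Igf1, the growth factor that growth hormone induces (chr10:87858265-87937042), rose with fat at normal Mg2+ and fell with fat at low Mg2+. It measured 88.5, 102.1, 84.1 and 96.4 FPKM in NormMg-LFD mice and 111, 121, 99.7, 125 and 110.0 FPKM in LowMg-LFD mice. On the HFD it measured 119, 112, 136, 107 and 102 FPKM at normal Mg2+ and 81.8, 99.99, 86.0, 79.9 and 83.9 FPKM at low Mg2+. All 5 LowMg-HFD values lay below all NormMg-HFD values, while 4 of 5 LowMg-LFD values lay above every NormMg-LFD value.

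Low Mg2+ on the HFD lowered Igf1 from 115 ± 13.1 FPKM (SD, n = 5) to 86.3 ± 7.97 FPKM (SD, n = 5), by -0.41 on the log2 scale (SE 0.09, adjusted p = 0.00479), and this held in all 30 alternatives (adjusted p up to 0.0184). On the LFD the means were 113 ± 9.83 FPKM (SD, n = 5) at low and 92.8 ± 8.04 FPKM (SD, n = 4) at normal Mg2+, a difference of 0.29 (SE 0.10) that was not called (adjusted p = 0.74). Fat lowered Igf1 at low Mg2+ by -0.39 (SE 0.09, adjusted p = 0.00687), which held in all 30 alternatives (adjusted p up to 0.0319). At normal Mg2+ fat raised it by 0.31 (SE 0.10, adjusted p = 0.0161). This last call was lost after median centring (0.20, adjusted p = 0.123), quantile normalization (0.14, adjusted p = 0.227), without NormMg-LFD replicate 4 (0.26, adjusted p = 0.0531) and with 15 mice (0.31, adjusted p = 0.0534).

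The response of Igf1 to fat differed between the Mg2+ levels by -0.70 (SE 0.13, adjusted p = 0.0343). The size of this interaction was -0.75 to -0.59 over the 29 alternatives, with adjusted p from 0.0162 to 0.102, and the call was lost in 15 of them. These included leaving out any of 11 mice (adjusted p up to 0.0786), no filter (adjusted p = 0.0735), 16 mice (-0.59, adjusted p = 0.0677) and 15 mice (-0.64, adjusted p = 0.102).

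Macrophages and stromal cells also make IGF1. The summed level of 16 macrophage markers was 818 FPKM to 952 FPKM in NormMg-LFD, 629 FPKM to 1255 FPKM in LowMg-LFD, 2899 FPKM to 4742 FPKM in NormMg-HFD and 953 FPKM to 2684 FPKM in LowMg-HFD mice. Of the 16, 14 rose and 1 fell with fat at normal Mg2+, 14 fell with low Mg2+ on the HFD, and 9 rose with fat at low Mg2+, where Igf1 fell. The 9 stromal progenitor markers summed to 1678 FPKM to 2266 FPKM in NormMg-HFD mice and to 815 FPKM to 1378 FPKM in the other groups. Of the 9, 3 matrix genes (Col1a1, Col3a1, Lum) rose with fat at normal Mg2+ and fell with low Mg2+ on the HFD, and the other 6, Pdgfra among them, were not called in these comparisons. The same 3 also rose with fat at low Mg2+ (0.74, 0.53 and 0.63), where Igf1 fell. Col3a1 alone went from 285 FPKM to 888 FPKM with fat at normal Mg2+. The part of these markers in the Igf1 values was not tested. None of the 8 lymphocyte markers passed the filter.

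**Figure D3:**
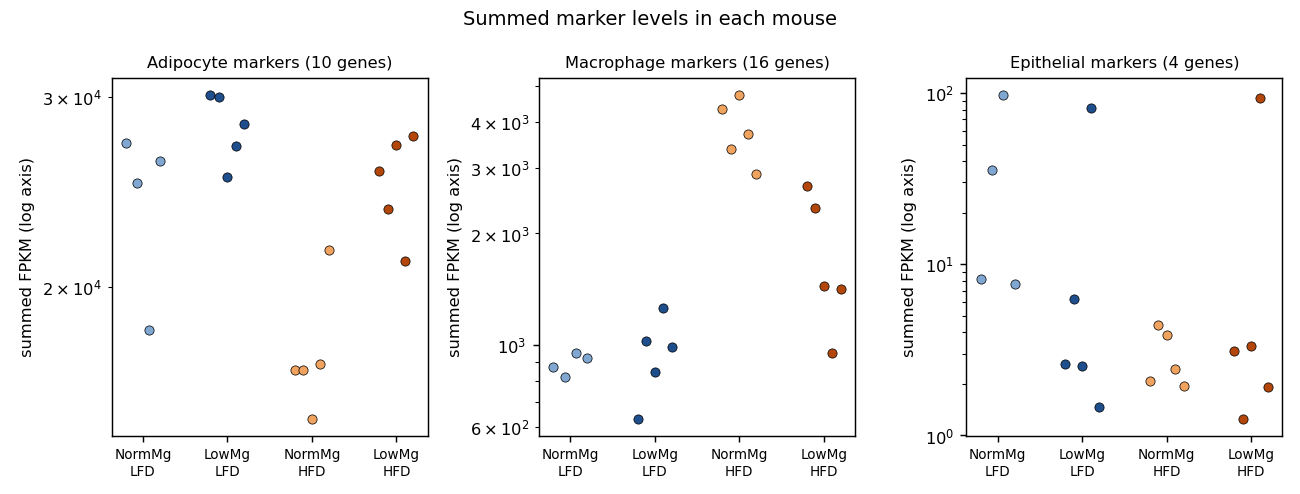
Summed FPKM (log axes) of adipocyte, macrophage and epithelial markers in each mouse (points) by diet group (x axes). Macrophage sums are highest in NormMg-HFD mice (2899 FPKM to 4742 FPKM), where adipocyte sums are lowest (15062 FPKM to 21635 FPKM), and 3 mice stand apart for epithelial markers (81.5 FPKM to 97.7 FPKM).

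Igf1r, the receptor for IGF1 (chr7:67952827-68233668), was expressed at a small part of the level of Ghr. Its FPKM was 5.13, 5.15, 9.64 and 3.23 in NormMg-LFD mice and 3.61, 3.92, 2.77, 5.05 and 3.17 in LowMg-LFD mice. On the HFD it was 2.63, 2.67, 2.49, 3.90 and 2.40 at normal Mg2+ and 3.71, 2.89, 4.53, 4.40 and 2.54 at low Mg2+. The highest value in 3 of the 4 groups, or the next to highest in LowMg-HFD, belonged to replicate 4, and in NormMg-LFD, LowMg-LFD and LowMg-HFD that mouse also held the most epithelial RNA. Whether epithelial RNA sets these values was not tested.

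Fat at normal Mg2+ lowered Igf1r by -0.76 (SE 0.22, adjusted p = 0.0127). Without NormMg-LFD replicate 4 the difference was -0.52 (adjusted p = 0.0549). It was -0.52 with 16 mice (adjusted p = 0.036) and -0.43 with 15 mice (adjusted p = 0.146). Mg2+ gave Igf1r differences of 0.26 (SE 0.21, adjusted p = 0.443) on the HFD and -0.47 (SE 0.22, adjusted p = 0.789) on the LFD, and the interaction was 0.73 (SE 0.30, adjusted p = 0.21). Without NormMg-LFD replicate 4 the Mg2+ difference on the LFD was -0.22 (adjusted p = 0.999) and the interaction 0.49 (adjusted p = 0.34). Within a mouse, Igf1 was 8.72 to 29.9 times as abundant as Igf1r in the NormMg-LFD, 24.7 to 36.0 times in the LowMg-LFD, 27.5 to 54.5 times in the NormMg-HFD and 18.2 to 34.6 times in the LowMg-HFD group, given without a test. The lowest of these ratios belonged to NormMg-LFD replicate 4.

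Of the binding proteins, Igfbp4 (chr11:99041244-99054392) was far more abundant than Igfbp3 (chr11:7206086-7213923), by group means of 19.6 to 28.2 times within a mouse. Igfbp4, which holds IGF1 away from its receptor until it is cleaved, measured 237, 250.1, 236.5 and 299 FPKM in NormMg-LFD mice and 141, 268, 277, 252 and 305 FPKM in LowMg-LFD mice. On the HFD it measured 213, 261, 187, 214 and 193 FPKM at normal Mg2+ and 268, 228, 328, 286 and 286 FPKM at low Mg2+, where 4 of 5 values lay above every NormMg-HFD value.

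For Igfbp4, low Mg2+ on the HFD gave a difference of 0.39 (SE 0.16) that was not called (adjusted p = 0.103). It would be called without LowMg-LFD replicate 1, the mouse with the lowest value (0.39, adjusted p = 0.0156), with the 2 groups alone (0.39, adjusted p = 0.0378) and after quantile normalization (0.50, adjusted p = 0.0380). Fat at normal Mg2+ gave -0.26 (SE 0.17, adjusted p = 0.244), which would be called after quantile normalization (-0.47, adjusted p = 0.0395). Within a mouse, Igfbp4 was 1.38 to 2.33 times as abundant as Igf1 in NormMg-HFD and 2.28 to 3.81 times in LowMg-HFD mice. On the LFD these ratios were 2.45 to 3.10 at normal and 1.27 to 2.78 at low Mg2+, and the ratios are given without a test.

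Igfbp3, the main carrier of IGF1 in blood, measured 11.53, 13.03, 17.64 and 11.94 FPKM in NormMg-LFD mice, 7.02, 7.63, 11.3, 12.5 and 7.41 FPKM in LowMg-LFD mice, 6.56, 8.38, 10.8, 13.5 and 16.9 FPKM in NormMg-HFD mice and 16.2, 20.2, 12.7, 10.9 and 12.5 FPKM in LowMg-HFD mice. Its groups overlapped in every comparison. The difference for fat at low Mg2+ was 0.61 (SE 0.22, adjusted p = 0.066), and it would be called in 7 of 30 alternatives, among them without LowMg-LFD replicate 4 (0.72, adjusted p = 0.0387), with 16 mice (0.81, adjusted p = 0.0214) and with 15 mice (0.81, adjusted p = 0.0268). At normal Mg2+ fat gave -0.30 (SE 0.23, adjusted p = 0.336). The difference between these responses, 0.91 (SE 0.32), was not called (adjusted p = 0.118).

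The other genes of these pathways were read from 8 lists of 78 genes, of which 76 were in the table and 42 passed the filter. Called were 28.6% of the 42 for Mg2+ on the HFD (3 higher, 9 lower), 0% for Mg2+ on the LFD, 47.6% for fat at normal Mg2+ (14 higher, 6 lower), 23.8% for fat at low Mg2+ (8 higher, 2 lower) and 4.76% for the interaction (2 lower). Over all genes tested these shares were 18.5%, 0%, 37.4%, 15.9% and 1.25%, and nothing is read from the lists as sets. The calls of pathway genes were not refitted after median centring or quantile normalization. Of these 44 calls, 36 held with 16 mice and 30 with 15 mice. Lost with 16 and with 15 mice were those of Junb for Mg2+ on the HFD, of Fgf2, Insr and Igfbp5 for fat at low Mg2+ and of Adam12 for the interaction. Lost with 15 mice alone were those of Dusp4, Map2k2, Mapk3 and Igfals for fat at normal Mg2+, of Spry1 for fat at low Mg2+ and of Grb2 for the interaction, while Stc2 and Spry4 no longer passed the filter in either fit. The median log2 difference of the 42 was -0.05, -0.12, 0.08, 0.12 and 0.08 in the same order, against -0.04, -0.06, 0.07, 0.10 and 0.01 over all genes tested. The heat map shows 24 genes of the 42 called in at least 1 comparison.

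**Figure D4:**
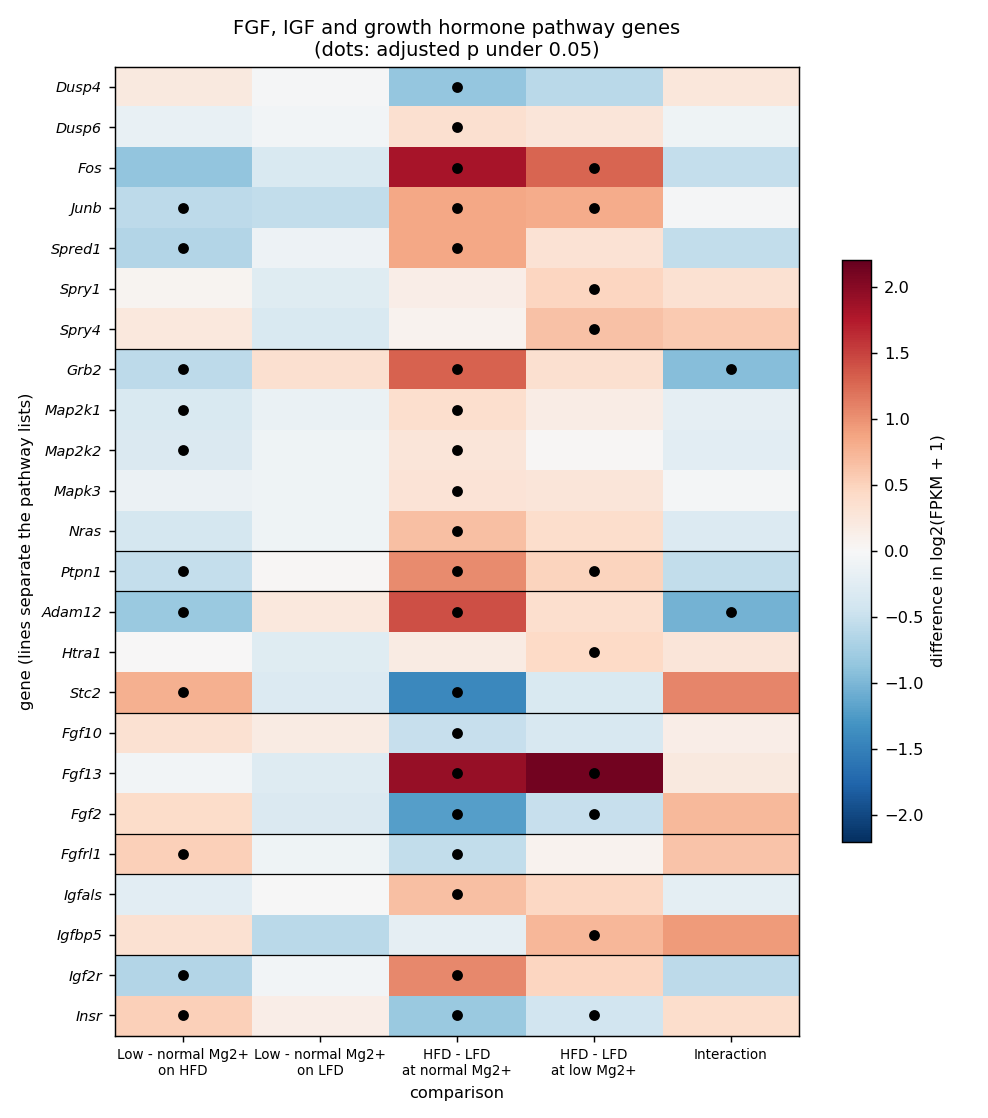
Differences in log2(FPKM + 1) (colour) of 24 other genes of the FGF, IGF and growth hormone pathways called in at least 1 comparison, by gene (y axis) and comparison (x axis), with dots for an adjusted p under 0.05 and lines between the lists. Grb2 and Adam12 carry the dots for the interaction (-0.94 and -1.04), and Fgf13 is among the strongest for fat at both Mg2+ levels (1.91 and 2.12).

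Among other FGF ligands 3 of 12 in the table were tested. All 3 were called for fat at normal Mg2+ (1 higher, 2 lower), where 37.4% of all genes were. Fgf13, a family member that stays inside the cell, was 14.2 FPKM in NormMg-LFD and 12.4 FPKM in LowMg-LFD mice, and rose with fat to 49.2 FPKM at normal Mg2+ (1.91, SE 0.39, adjusted p = 0.00081) and 47.9 FPKM at low Mg2+ (2.12, SE 0.37, adjusted p = 0.00142). Fgf2, a ligand of stromal and endothelial growth, fell with fat at normal Mg2+ from 15.9 FPKM to 6.19 FPKM (-1.22, SE 0.17, adjusted p = 1.33e-05) and at low Mg2+ from 12.6 FPKM to 8.67 FPKM (-0.51, SE 0.16, adjusted p = 0.0315). Fgf10, known for its part in forming preadipocytes, fell at normal Mg2+ from 14.5 FPKM to 9.97 FPKM (-0.51, SE 0.17, adjusted p = 0.0263). None of the 3 was called for Mg2+ on the HFD, where 18.5% of all genes were. Of the other receptors and co-receptors only Fgfrl1, a receptor that lacks the kinase domain, passed the filter. It fell with fat at normal Mg2+ from 119 FPKM to 81.0 FPKM (-0.54, SE 0.15, adjusted p = 0.00943) and rose with low Mg2+ on the HFD to 119 FPKM (0.53, SE 0.15, adjusted p = 0.0167).

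Downstream of the FGF receptor, 13 of 17 adaptor and ERK cascade genes were tested. With fat at normal Mg2+ 5 rose (Grb2, Map2k1, Map2k2, Mapk3, Nras), and with low Mg2+ on the HFD 4 fell, among them Grb2, Map2k1 and Map2k2, where 37.4% and 18.5% of all genes were called. Macrophage markers moved the same way, 14 of 16 higher with fat at normal Mg2+ and 14 lower with low Mg2+ on the HFD, and their part in these values, or in those of Igf2r, Adam12 and Ptpn1 given next, was not tested. Grb2, the adaptor that links receptors to RAS, showed the largest changes, from 33.5 FPKM in NormMg-LFD to 81.5 FPKM in NormMg-HFD mice (1.29, SE 0.15, adjusted p = 4.01e-06), and 54.8 FPKM in LowMg-HFD mice. Its interaction was -0.94 (SE 0.21, adjusted p = 0.0447). Of 16 feedback and target genes of FGF and ERK signalling, 10 were tested. Fat at normal Mg2+ raised 4 (Fos, Junb, Spred1, Dusp6) and lowered Dusp4, where 37.4% of all genes were called. Fat at low Mg2+ raised 4 (Fos, Junb, Spry1, Spry4), where 15.9% of all genes were called. Fos, an early response gene of many signals, rose from 10.04 FPKM to 33.1 FPKM at normal Mg2+ (1.81, SE 0.35, adjusted p = 0.00045). Spry1 and Spry4, feedback inhibitors of FGF receptors, rose at low Mg2+ by 0.47 (SE 0.15, adjusted p = 0.0346) and 0.64 (SE 0.21, adjusted p = 0.0428). Junb and Spred1 fell with low Mg2+ on the HFD.

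In the IGF lists, the insulin receptor Insr fell with fat at normal Mg2+ from 29.3 FPKM to 16.6 FPKM (-0.81, SE 0.14, adjusted p = 0.000122) and at low Mg2+ from 32.4 FPKM to 23.96 FPKM (-0.42, SE 0.13, adjusted p = 0.0312), and rose with low Mg2+ on the HFD (0.52, SE 0.13, adjusted p = 0.00889). Igf2r, which clears IGF2 and sorts lysosomal enzymes, moved the other way, from 14.0 FPKM to 30.3 FPKM with fat at normal Mg2+ (1.05, SE 0.18, adjusted p = 0.000122) and down to 19.9 FPKM with low Mg2+ on the HFD (-0.64, SE 0.17, adjusted p = 0.0125). Of the other binding proteins and partners, 4 of 6 were tested. Igfals, which encodes the acid-labile subunit of the circulating IGF complex, rose with fat at normal Mg2+ (0.67, SE 0.21, adjusted p = 0.0188), and Igfbp5 rose with fat at low Mg2+ from 40.4 FPKM to 65.4 FPKM (0.73, SE 0.21, adjusted p = 0.0228).

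Of the proteases that cut IGF binding proteins and their inhibitors, 3 of 6 were tested. Adam12, a metalloprotease that cleaves IGFBP3 and IGFBP5, rose with fat at normal Mg2+ from 7.39 FPKM to 21.96 FPKM (1.41, SE 0.17, adjusted p = 4.91e-06), fell with low Mg2+ on the HFD to 11.9 FPKM (-0.81, SE 0.16, adjusted p = 0.00362) and was called for the interaction (-1.04, SE 0.24, adjusted p = 0.046). Stc2, an inhibitor of the protease that cleaves IGFBP4, moved oppositely, from 11.7 FPKM to 3.78 FPKM with fat at normal Mg2+ (-1.41, SE 0.20, adjusted p = 1.74e-05) and up to 7.23 FPKM with low Mg2+ on the HFD (0.78, SE 0.19, adjusted p = 0.00748). Htra1 rose with fat at low Mg2+ (0.44, SE 0.13, adjusted p = 0.0299).

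In growth hormone signalling, 5 of 9 genes were tested, among them Jak2, Stat5a and Stat5b, and Ptpn1 alone of the 5 was called. Its calls were for fat at normal Mg2+, fat at low Mg2+ and Mg2+ on the HFD. There 37.4%, 15.9% and 18.5% of all genes were called. Ptpn1, a phosphatase that acts on JAK2 and on the insulin receptor, rose with fat from 13.3 FPKM to 28.7 FPKM at normal Mg2+ (1.04, SE 0.17, adjusted p = 0.000104) and from 13.7 FPKM to 19.4 FPKM at low Mg2+ (0.49, SE 0.16, adjusted p = 0.0462). It fell with low Mg2+ on the HFD (-0.53, SE 0.16, adjusted p = 0.031).

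Some pathway genes under the filter were called in the wider fit, all for fat at normal Mg2+, where 30% of all genes were. Socs3, an inhibitor of cytokine and growth hormone signalling, rose (0.96, SE 0.34, adjusted p = 0.0401), as did the ERK phosphatase gene Dusp5 (1.35, SE 0.25, adjusted p = 0.000496). Irs1, the adaptor of the insulin and IGF1 receptors, fell (-0.92, SE 0.20, adjusted p = 0.00155) and also fell with fat at low Mg2+ (-0.60, SE 0.19, adjusted p = 0.0479), where 10.4% of all genes were called. Fgf11 (-1.05, adjusted p = 0.00244), Fgfr2 (-1.13, adjusted p = 0.0208) and Igfbp2 (-1.39, adjusted p = 0.0447) fell as well. With 16 mice the calls of Socs3 (adjusted p = 0.0649), Igfbp2 (adjusted p = 0.0767) and Irs1 at low Mg2+ (adjusted p = 0.077) were lost, and with 15 mice those of Socs3, Igfbp2, Fgfr2 and Irs1 at normal Mg2+. Fgfr2 was highest in the 3 mice with most epithelial RNA, at 17.6 FPKM in NormMg-LFD replicate 4, 8.68 FPKM in LowMg-LFD replicate 4 and 8.58 FPKM in LowMg-HFD replicate 4, against at most 7.17 FPKM elsewhere, and its difference was -0.74 with 16 mice (adjusted p = 0.0261) and -0.55 with 15 mice (adjusted p = 0.145).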

How the data were processed

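Single-end reads of 50 bases were obtained from eWAT, with a library for each mouse. Reads were placed by the authors on mouse transcripts of GRCm38/mm10 by HISAT and Bowtie2, and RSEM 1.2.31 quantified genes, per the labels and the methods of the study. The deposited table holds FPKM of 24238 genes. The deposited mapping summary gives total reads as counts and the percent mapped per mouse. A gene with a cell that is not a number was left out, 12 lines of spilled annotation were dropped and 26 symbols that had become dates were restored. The FPKM carry no counts per gene, so that a model of counts was not used.

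Samples were grouped by their labels. A value of 1 was added to FPKM and log2 was taken. R 4.3.3 and limma 3.58.1 were used to fit means of the 4 groups, with a trend of variance on intensity and 15 residual degrees of freedom. P-values are two-sided and adjusted by Benjamini-Hochberg within a contrast over the genes tested. The code was tested on simulated data. The members, the pathway and marker lists and the tests were chosen with earlier results of these data known. Named beside the members are pathway genes past the threshold, marker genes by counts, and the 3 genes with the highest Pearson r to a member. Of the genes past the threshold, 1 pathway gene is not reported here. Gene positions are those of GENCODE M21 (GRCm38) and promoter windows those of RefSeq (GRCm38.p6). Same-numbered mice did not deviate together, so that no replicate block entered the fit. Alternatives were a pseudocount of 0.1, a filter at FPKM 1 or none, median centring, quantile normalization, no trend, only the groups compared, the replicate block, each mouse left out, 18 mice (without LowMg-HFD replicate 4, log2 over 3), and the fits with 16 and 15 mice. Python 3.11.15 and matplotlib 3.10.9 drew the figures.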

Additional observations from a re-analysis of the deposited data

Results flagged for a closer look

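The response of Igf1 to fat differed between the Mg2+ levels, by a log2 difference of -0.70 (SE 0.13, adjusted p = 0.0343 in limma). Fat raised it at normal Mg2+ (0.31) and lowered it at low Mg2+ (-0.39), with 4 of 5 mice beyond the range of the other group in each case. The call of the difference was lost in 15 of 29 alternatives, and that of the rise at normal Mg2+ after median centring (0.20, adjusted p = 0.123) and quantile normalization (0.14, adjusted p = 0.227).

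Among the 36 groups of values (9 genes in 4 diet groups), 1 held a mouse far from the rest by Dixon's criterion. Igf1r in NormMg-HFD replicate 4 was 3.90 FPKM, and its gap to the next mouse was 0.82 of the range of the group, above the critical value of 0.71. Chance flags about 1 in 20 groups.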

How the results depend on the processing

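Of 9 member values called, none changed direction in 261 recomputed values, and 44 lost the call. Of 36 values not called, 14 of 1040 recomputed values were called and 27 changed sign, none of these over 0.18 in size. The call of Ghr for fat at normal Mg2+ and those of Igf1 for Mg2+ on the HFD and fat at low Mg2+ held throughout.

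The number of members called for Mg2+ on the HFD (2, against 18.5% of all genes) was 1 with no filter (5.1%). It was 1 to 3 leaving out single mice (11.3% to 19.8%). For fat at normal Mg2+ (2 of 7 members, against 37.4% of all genes) it was 4 of 9 with the filter at FPKM 1 (30%). It was 1 to 2 leaving out single mice (31.3% to 39.5%) and 1 with 15 mice (34.2%). For fat at low Mg2+ (2, against 15.9% of all genes) it was 1 with no filter (3.96%), after median centring (13.5%) and after quantile normalization (12.9%). It was also 1 with the groups compared alone (8.7%), and 1 to 3 leaving out single mice (9.67% to 17.7%). For the interaction (1, against 1.25% of all genes) it was 0 with no filter (0.00825%), with 16 mice (0.309%) and with 15 mice (0%). It was 0 to 1 leaving out single mice (0% to 5.83%). The calls of Fgf21 and Igf1r were 2, both for fat at normal Mg2+, against 30% of all genes. They numbered 1 with no filter (15.1%) and with the groups compared alone. Leaving out single mice gave 1 to 2 of these calls, and 15 mice gave 0. A fit of the 2 groups alone gives no interaction, and 15 mice leave 2 in the NormMg-LFD group.

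Same-numbered mice did not deviate together: the correlations of their deviations ran from -0.183 to 0.339, so that the numbers do not pair the mice. With the replicate block 0 members were called for the interaction (Igf1 -0.70, adjusted p = 0.0725), as were 0% of all genes. In the other comparisons 2, 0, 2 and 2 members were called, as without it, against 17.6%, 0%, 36.3% and 15.2% of all genes.

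Signs turned for small differences. For Fgf1 and Mg2+ on the HFD the value was 0.03 (median centring), 0.04 (quantile), and -0.13 to 0.08 leaving out single mice. For Fgfr1 and fat at low Mg2+ it was -0.09, -0.06, and -0.06 to 0.08. For Fgf21 and fat at low Mg2+ it was -0.01 and -0.05, and for Fgf21 and Mg2+ on the LFD -0.06 to 0.30 leaving out single mice. For the interaction of Klb it was -0.11 with 16 and -0.18 with 15 mice, and -0.12 to 0.22 leaving out single mice. For Igf1r and fat at low Mg2+ it was 0.00 with 16 and with 15 mice, and -0.11 to 0.06. For Mg2+ on the LFD, Ghr ran from -0.04 to 0.09 and Igfbp4 from -0.17 to 0.11. The cause of these changes was not tested. The Fgf21 values rest on 0 to 20 reads per mouse.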

Other observations

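Several genes of these pathways that lay under the filter were detected mainly in the libraries with epithelial RNA. Fgfr4, a receptor of the FGF family, was 8.95 FPKM in NormMg-LFD replicate 4, 4.76 FPKM in LowMg-LFD replicate 4, 6.83 FPKM in LowMg-HFD replicate 4 and 3.09 FPKM in NormMg-LFD replicate 3, and at most 0.67 FPKM in the other 15 mice. Kl, which encodes α-klotho, the co-receptor for FGF23, was 3.15, 1.69, 2.61 and 1.32 FPKM in the same mice and at most 0.37 FPKM in the others. Igfbp1 was 3.06, 1.62, 2.04 and 0.58 FPKM there and at most 0.23 FPKM elsewhere. These genes were singled out after their values were seen, and no difference between groups was read from them.

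Over the 19 mice, the genes most like the other members were Cryab for Fgf1 (r = 0.883), Atrnl1 for Fgfr1 (r = 0.863), 1110051M20Rik for Igfbp4 (r = 0.813), Smyd2 for Igfbp3 (r = 0.796), Igsf8 for Igf1 (r = 0.793) and Cnbp for Klb (r = 0.790). All 6 were lower than the value of 0.955 for Ghr and Gnai1. These are descriptions over mice that share diet groups and libraries.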
